A study of Strongylocentrotus purpuratus with 8 samples.

Results

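The windows described here are 500 bp stretches of the purple sea urchin genome (Strongylocentrotus purpuratus) that hold few CpG sites and were read as unmethylated in every library of a bisulfite sequencing series. A window was chosen where 4 to 7 CpG sites were listed in any of the 8 libraries, where each library had 20 or more reads at these sites, and where 10% or less of the reads were methylated in each library. This rule found 4737 windows among 34429 windows of 4 to 7 sites with 20 or more reads in each library, and among 1522405 windows with at least 1 listed CpG site. The levels and reads of all 8 libraries chose the windows, so these values are described below without a test. Tests were kept for measures that the rule did not use, which are the levels of neighbouring windows and the levels, though not the read numbers, of libraries left out of the choice. Adjoining windows can share reads, so the levels of neighbours are not independent of the choice.

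The 8 libraries were made from untreated whole embryos collected 24, 48 or 72 hours after fertilisation (24, 48 and 72 hpf) and from tube feet of adults, the soft appendages with which the animal walks and clings, with 2 biological replicates in each of the 4 groups. Genomic DNA was treated with bisulfite, which turns unmethylated cytosines into bases read as thymine, and the share of reads still showing cytosine at a CpG is its methylation level. Whole embryos and tube feet hold many cell types, so a level is a mean over cells, and a few methylated cells cannot be told apart from partial methylation of many. The labels do not give the number of embryos or animals behind a library or say that replicates came from separate cultures or animals, so p-values measure the spread between these libraries, which may be technical. Reads at CpG sites numbered 75377025 to 126381599 per library. On unmethylated lambda phage DNA added to each sample, 0.112% to 0.296% of reads were called methylated, which is the joint level of incomplete conversion and sequencing error. A read that covers several sites was counted at each of them, and intervals cover counting error only.

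In animals, DNA methylation is placed on cytosines that precede guanines. Invertebrate genomes carry it in a mosaic, in which long methylated tracts, often the bodies of active genes, alternate with unmethylated tracts. A methylated cytosine is prone to deaminate to thymine, so DNA that is methylated in the germ line tends to lose CpG sites over evolution, and CpG-poor DNA is for that reason commonly methylated where a genome carries methylation.

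One library set most of the boundary of the group. Of the windows of 4 to 7 sites, 85.3% had under 20 reads in 24 hpf replicate 2, against 49.9% to 62.4% in each of the 7 other libraries. In the 7 other libraries alone, 23405 windows met the rule. These had a median of 8 reads in 24 hpf replicate 2, where 18578 of them (79.4%) had under 20 reads and a further 90 had enough reads but stood above 10%. Windows of 4 to 7 sites at 80% or more in the same 7 libraries had a median of 22 reads in 24 hpf replicate 2, and 46.1% of them fell under 20 reads. The 18578 thinly read windows had a pooled level of 0.860% in that library, over 129091 reads. The 4737 windows are thus those of a larger group that had enough reads and met the limit in 24 hpf replicate 2, and the main results are also given without that library.

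Among windows with 20 or more reads in each library, the share that was unmethylated in all libraries was higher in CpG-rich windows. It was 10.5% for windows of 1 to 3 sites (Wilson 95% interval 9.05% to 12.1%), 7.36% for 4 sites, 9.25% for 5 sites, 13.1% for 6 sites and 18.2% for 7 sites, and 13.8% over the 4 to 7 site range (Wilson 95% interval 13.4% to 14.1%). Windows of 8 to 11 sites were unmethylated in all libraries in 36.7% of cases, those of 12 to 19 sites in 64.4%, those of 20 to 29 sites in 67.3% and those of 30 or more sites in 57.6%. The opposite state, 80% or more in every library, was held by 15.9% of windows of 4 to 7 sites and by 5.14% of windows of 30 or more. Without 24 hpf replicate 2 the unmethylated share of windows of 4 to 7 sites was 25.3%, and the order from 4 to 7 sites was the same, with 12.1%, 18.6%, 25.9% and 35.1%. The highest share was then that of 12 to 19 sites, 70.8%, against 68.4% for 20 to 29 sites. The methylated share of windows of 4 to 7 sites was then 11.6%, so that the unmethylated share was above it without this library and below it with all 8. The group leaned to its upper edge: 2483 of the 4737 windows had 7 sites, 1364 had 6, 632 had 5 and 258 had 4. The read minimum was met by 3.36% of windows of 4 sites and 8.43% of windows of 4 to 7 sites. It was met by 66.9% of windows of 20 to 29 sites and 71.0% of those of 30 or more. How far this shapes the order of the shares was not tested.

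**Figure D1:**
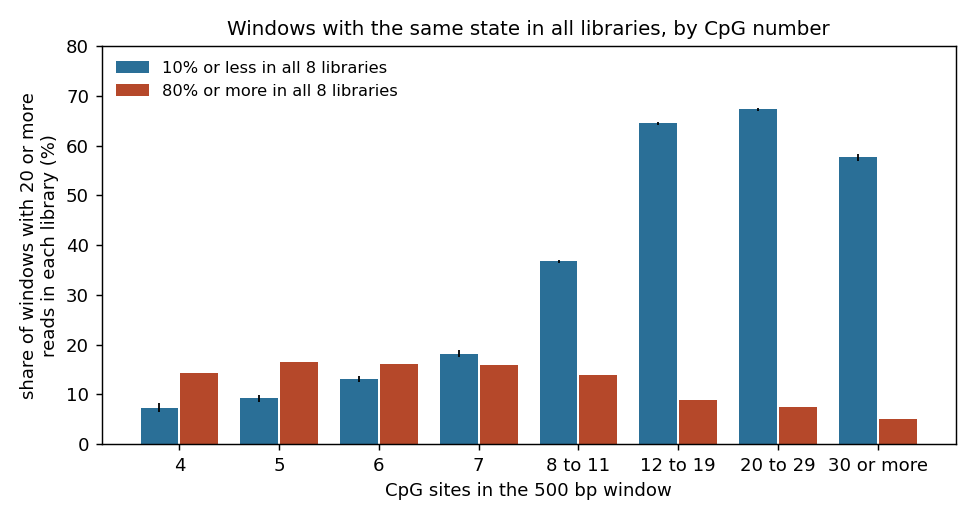
Share of 500 bp windows (in percent of windows with 20 or more reads in each library) at 10% or less in all 8 libraries (blue, with Wilson 95% intervals) and at 80% or more in all 8 libraries (red), by number of CpG sites. The blue bars grow from 7.36% at 4 sites to 67.3% at 20 to 29 sites, while the red bars stay between 5.14% and 16.5%.

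Taken over the group as a whole, methylation was low but above the error level of the assay. With reads pooled over the 4737 windows, the level was 0.569% and 0.684% (24 hpf), 0.740% and 0.741% (48 hpf), 0.838% and 0.688% (72 hpf) and 0.630% and 0.569% (adult tube feet), from 290326 to 509262 reads per library. These levels were 2.36 to 5.07 times the lambda level of the same library, so most of the small pooled remainder was above what lambda shows. The highest ratio was that of 24 hpf replicate 1, which had the lowest lambda level. Between 66.9% and 82.4% of the windows had no methylated read in a given library, and 924 windows (19.5%) had none in any of the 8. The median level of a window over all libraries was 0.331%, against lambda levels of 0.112% to 0.296%, so the pooled excess does not describe the typical window. At 5% or less in every library stayed 4298 windows (90.7%). Without 24 hpf replicate 2, the pooled levels of the 23405 windows lay between 0.484% and 0.773%.

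The remaining methylated reads were concentrated in few places. Of 21337 methylated reads in the group, 59.8% fell in the 473 windows with the most of them, and 31.9% fell in 297 of the 29757 CpG sites. No methylated read was found at 21218 sites (71.3%). Single sites with 10 or more reads in each library numbered 2452, and none of them reached 20% in all 8 libraries or 50% in any, while 9 exceeded 20% in at least 1 library. The limit on the whole window largely fixes this, since a highly methylated site among so few would lift the window above it.

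The best covered windows show this state with the least counting error. Windows of this kind were named by the reads in their shallowest library, leaving out windows with very high coverage. The window at positions 420001 to 420500 of Scaffold456 (build Spur3.1, 7 CpG sites) had 0.348% and 0.590% methylated reads (24 hpf), 0.857% and 0 of 306 (48 hpf), 0.465% and 0 of 309 (72 hpf) and 0 of 359 and 0.649% (adult tube feet), from 215 to 359 reads. The window at 15001 to 15500 of Scaffold2911 (7 sites) had 0 of 326 and 0 of 205 methylated reads (24 hpf), 0.242% and 0.311% (48 hpf), 0.699% and 0.287% (72 hpf) and 0.694% and 0.943% (adult tube feet). In both windows the adult libraries overlapped those of 72 hpf, and no library had more than 4 methylated reads. The window at 3001 to 3500 of Scaffold235 (7 sites) had 4 methylated reads among 1883 over all libraries. The window at 501 to 1000 of Scaffold14075 (7 sites) had 18 among 2846, and its highest level was 2.42% in 24 hpf replicate 2, from 5 of 207 reads.

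Windows at the edge of the rule were named because their highest library lay nearest to 10%, so an uneven level is partly set by the choice. Just inside it, the window at 117001 to 117500 of Scaffold1708 (5 sites) stood at 10.0% and 9.59% (24 hpf), 7.72% and 3.90% (48 hpf), 4.81% and 0.712% (72 hpf) and 5% and 6.67% (adult tube feet). Also just inside, the window at 32001 to 32500 of Scaffold2466 (7 sites) reached 10.0% in 48 hpf replicate 2 and had 1 of 120 and 0 of 120 methylated reads in adult tube feet. Just outside, the window at 69001 to 69500 of Scaffold3327 (7 sites) had 49 methylated among 488 reads in 24 hpf replicate 2 and 0% to 5.66% in the 7 other libraries. The window at 49001 to 49500 of Scaffold2922 (7 sites) was outside through 14 of 139 reads in 24 hpf replicate 1, with 3.5% in the other 24 hpf library and under 7% elsewhere. At this boundary a few reads in 1 library decided membership.

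The level of a directly adjoining window was not used by the rule where that neighbour has 8 or more CpG sites, since such a window could never be chosen, although a read can span the border. There were 4043 such denser neighbours with 20 or more reads in each library. Their mean level was 1.12% and 1.95% (24 hpf), 1.30% and 1.49% (48 hpf), 1.32% and 1.32% (72 hpf) and 1.20% and 1.17% (adult tube feet). Beside the other windows of 4 to 7 sites, 15450 denser neighbours had mean levels of 80.3% and 82.1% (24 hpf), 78.5% and 79.9% (48 hpf), 80.5% and 80.1% (72 hpf) and 68.5% and 67.7% (adult tube feet). The difference averaged -75.8 ± 5.56 points (SD, n = 8 libraries) and was negative in 8 of 8 libraries (two-sided exact sign-flip permutation test, p = 0.00781, the smallest the test can give). It was -71.0 points without 24 hpf replicate 2 (exact permutation p = 0.0156, the smallest with 7 libraries). The p-value covers the spread between libraries, which all read the same genome positions. Both sets of CpG-poor windows were split by their level in these same libraries, and a read can span the border. The direction of the difference is thus partly set by the choice.

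Almost all of the denser neighbours were unmethylated throughout. At 10% or less in all 8 libraries stood 3766 of the 4043 (93.1%), against 2.28% of the denser neighbours of other CpG-poor windows and 58.1% of all windows of 8 or more sites. Only 6 denser neighbours were at 80% or more in all libraries, and 35 exceeded 50% in at least 1 library. In the larger group without 24 hpf replicate 2, 94.9% of 26468 denser neighbours were at 10% or less in all 7 libraries.

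**Figure D2:**
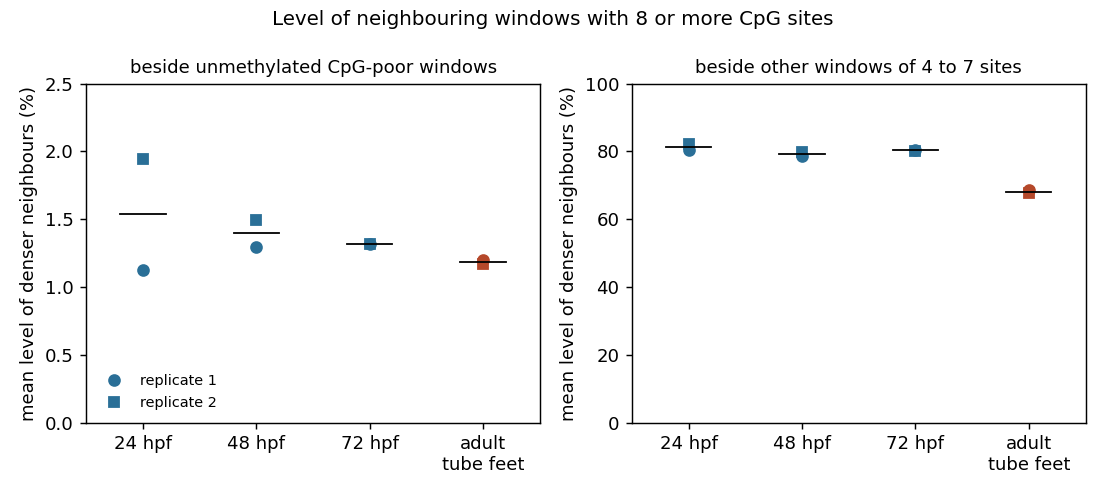
Mean methylation level (percent) of neighbouring windows with 8 or more CpG sites, beside the unmethylated CpG-poor windows (left, axis to 2.5%) and beside the other windows of 4 to 7 sites (right, axis to 100%). Each point is a library, circles replicate 1 and squares replicate 2, and bars are group means; the left panel runs from 1.12% to 1.95% and the right panel from 67.7% to 82.1%.

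The neighbours of the unmethylated CpG-poor windows were slightly lower in level than those of CpG-dense unmethylated windows, taken here as windows of 20 or more sites at 10% or less in each library. Neighbours of 8 to 19 sites, which belong to neither set, averaged 1.29% beside the CpG-poor windows and 1.43% beside the CpG-dense ones over the 8 libraries. The difference was -0.145 ± 0.0394 points (SD, n = 8) and negative in 8 of 8 libraries (two-sided exact sign-flip permutation test, p = 0.00781). Without 24 hpf replicate 2 it was -0.328 points, and with a minimum of 10 reads -0.373 points. With the level limit set at 20%, it was 0.156 points in the other direction (exact permutation p = 0.00781), so its sign follows the limit. Of the neighbours, 318 belonged to both comparisons.

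Between stages, the denser neighbours did not differ beyond the spread of the libraries. Their mean level was 1.19% ± 0.0178 (SD, n = 2) in adult tube feet and 1.42% ± 0.285 (SD, n = 6) in embryos, a difference of -0.230 points (two-sided exact permutation test over 28 splits, p = 0.357; the smallest it can give is 0.0357). On the same neighbours the embryos averaged 1.31% ± 0.131 (SD, n = 5) without 24 hpf replicate 2. With the neighbours also chosen without it, the difference was -0.0520 points (exact permutation p = 0.619). The 4 groups gave an exact permutation p of 0.819 over 105 partitions. It was 0.0286 without 24 hpf replicate 1, when 24 hpf replicate 2 stood alone for its stage. Beside the other CpG-poor windows the mean was 68.1% ± 0.565 (SD, n = 2) in adult tube feet and 80.2% ± 1.16 (SD, n = 6) in embryos. The rule held the unmethylated CpG-poor windows low in adult and embryo libraries alike, and a read can span the border. Low levels of their denser neighbours at every stage are thus partly set by the choice. At means this low, these neighbours also had little room to fall. The comparisons of groups therefore cannot show whether such neighbours are stable between stages. After Benjamini-Hochberg adjustment over 6 exact permutation tests, both comparisons of neighbour sets had an adjusted p of 0.0234 and the comparisons of groups had 0.643 or more.

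The same contrast was examined window by window. A quasi-binomial logistic model was fitted to 367598 windows of 4 or more sites, and calls needed a Benjamini-Hochberg adjusted p under 0.05 together with a difference of at least 20 points. Over all windows tested, 0.970% were called higher and 9.22% lower in adult tube feet than at 72 hpf, 10.2% in either direction. Of the 4043 denser neighbours, 6 (0.148%) were called higher and 9 (0.223%) lower. The test made no call where the level pooled over all libraries was close to 0% or 100% (below 2.5%, or within 2.5 points of the top), which left 320 of the 4043 neighbours and 170526 of all windows open to a call. Of these, 1.88% of the neighbours and 2.09% of all windows were called higher, and 2.81% of the neighbours and 19.9% of all windows lower. Outside these bounds, 0 of the neighbours and 11 of all windows differed by 20 points or more. Without 24 hpf replicate 2, when 26468 denser neighbours had enough reads, 70 were called higher and 70 lower. Most neighbours were too low at 72 hpf to be 20 points lower in the adult, so a nearer background for the higher calls is the 207589 windows of 8 or more sites at 10% or less in pooled embryo reads. Of the denser neighbours at the same level, 6 of 3930 (0.153%) were called higher in the adult, against 0.698% of those windows. Within the bounds on the mean level these shares were 6 of 207 (2.90%) for the neighbours and 1450 of 15101 (9.60%) for all such windows. These differences in shares were not tested. The neighbours adjoin windows that the rule also held at 10% or less in both adult libraries, while the background windows were held low in embryos only. The lower shares of the neighbours may thus be partly set by the choice. The CpG-poor windows themselves gave 0 calls, which their limit of 10% fixes in advance, and their differences lay between -8.28 and 9.23 points.

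The neighbours with the largest called differences are given with the CpG-poor window they adjoin, whose own level the rule holds at 10% or less. The neighbour with the largest rise, at positions 385001 to 385500 of Scaffold164 with 41 sites, stood at 40.3% and 53.7% in adult tube feet, against 0.767% and 4.65% at 72 hpf. Its 24 and 48 hpf libraries lay between 1.11% and 4.11%. The difference was 43.9 points (quasi-binomial test, adjusted p = 0.000647). The CpG-poor window next to it, 385501 to 386000, had 4 of 64 and 2 of 46 methylated reads in the adult, against 1 of 34 and 0 of 42 at 72 hpf.

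In the next rise, the neighbour at 867001 to 867500 of Scaffold198 (9 sites) had 31.1% and 28.2% in adult tube feet, against 0 of 140 and 0 of 100 reads at 72 hpf (adjusted p = 0.000345 in the quasi-binomial test). The CpG-poor window beside it, 867501 to 868000, had 0 of 68 and 1 of 39 methylated reads in the adult and 0 of 71 and 1 of 81 at 72 hpf. The neighbour at 142501 to 143000 of Scaffold1018 (24 sites) rose by 24.6 points, to 27.7% and 24.9% in adult tube feet, against 0.660% and 1.88% at 72 hpf (adjusted p = 0.000702). The neighbour at 107001 to 107500 of Scaffold266 (19 sites) rose by 22.9 points, to 33.5% and 28.7%, against 6.26% and 12.7% at 72 hpf (adjusted p = 0.0277). Groups did not overlap in any of these 4 neighbours, which the naming rule required.

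Among falls, the neighbour at 407001 to 407500 of Scaffold356 (22 sites) had 49.6% and 50.0% in adult tube feet, against 90.9% and 94.2% at 72 hpf, a difference of -42.7 points (quasi-binomial test, adjusted p = 0.000245). The CpG-poor window at 407501 to 408000 (5 sites) had 0 methylated reads among 485 over all libraries. The level of the neighbour was 90.9% to 95.8% in all 6 embryo libraries. The other named falls were smaller, at 1211001 to 1211500 of Scaffold16 (-29.6 points, adjusted p = 0.0145), 172001 to 172500 of Scaffold246 (-23.9 points, adjusted p = 0.0126) and 233001 to 233500 of Scaffold690 (-23.6 points, adjusted p = 0.0262). Their 72 hpf levels were intermediate, 21.7% to 39.3%, and their adult levels were between 0 of 124 reads and 12.5%. The CpG-poor window beside the Scaffold16 neighbour was itself among the less empty ones, with 0 of 36 and 0 of 57 methylated reads in the adult, against 1 of 44 and 6 of 79 at 72 hpf.

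Methylation was higher with distance from the unmethylated CpG-poor windows. Windows of 8 or more sites at 0.5 kb averaged 1.27% upstream in scaffold coordinates and 1.09% downstream in adult tube feet, against 1.52% and 1.30% in embryos. At 5 kb the values were 5.16% and 4.80% in the adult, against 6.09% and 5.54% in embryos, and at 10 kb they were 7.60% and 7.54% in the adult, against 8.69% and 8.42% in embryos. Around the other CpG-poor windows the direction was the reverse, with 68.4% and 68.3% at 0.5 kb and 54.3% and 52.9% at 10 kb in the adult, against 80.5% and 80.4% at 0.5 kb and 65.0% and 63.7% at 10 kb in embryos. The sign of the position carries no meaning here, since gene orientation was not used.

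**Figure D3:**
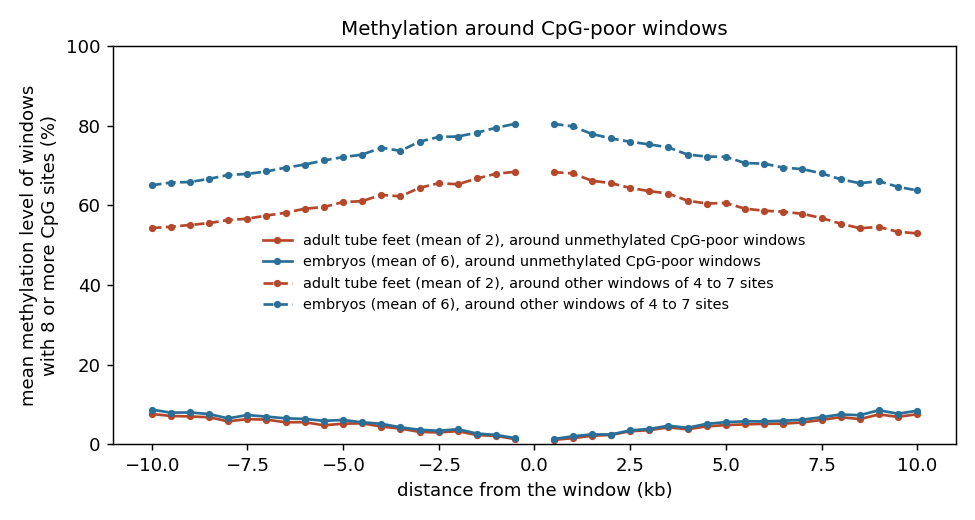
Mean methylation level (percent) of windows with 8 or more CpG sites and 20 or more reads in each library, by distance from a CpG-poor window (kb, along the scaffold), in adult tube feet (red, mean of 2 libraries) and embryos (blue, mean of 6 libraries). Solid lines around the unmethylated CpG-poor windows stay below 9% out to 10 kb; dashed lines around the other windows of 4 to 7 sites start at 68.4% in the adult and 80.5% in embryos and decline with distance.

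Most neighbours held more CpG sites than the unmethylated window itself, 77.9% of those listed, against 50.6% beside methylated CpG-poor windows. The window next to an unmethylated CpG-poor window held a median of 11 CpG sites (quartiles 7 and 15), whereas the window next to a methylated one, at 80% or more in all libraries, held a median of 6 (quartiles 4 and 10). A listed neighbour had 8 or more sites in 73.2% of cases beside the unmethylated windows and in 41.9% beside the methylated ones. Both neighbours had 8 or more sites for 49.7% of the unmethylated windows and for 18.1% of the methylated ones. The windows themselves had means of 6.28 and 6.01 sites. With 7 sites were 2483 of the 4737 unmethylated windows and 2165 of the 5472 methylated ones. The sets were thus not matched in CpG number. CpG numbers count the sites listed in any library, so they depend on coverage as well as on the genome. Of the sites in the unmethylated windows, 79.3% were listed in all 8 libraries. With sites listed in at least 4 libraries, the rule found 6476 windows. CpG numbers have no replicates, so the shares are given without a test. The median of 11 was the same in the 23405 windows found without 24 hpf replicate 2.

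The layout of sites inside the window differed little. The longest part of the window without a listed CpG had a median of 202 bp in the unmethylated windows (quartiles 161 and 265) and 219 bp in the methylated ones (quartiles 175 and 277). All sites lay on one side of the window's midpoint in 19.3% of the unmethylated windows and in 19.6% of the methylated ones. A part without listed CpG may be CpG-free DNA or a gap in the assembly, and this was not tested. The grid also matters to the membership of single windows: with the grid shifted by 250 bp the rule found 4730 windows, and 998 of the 4737 (21.1%) overlapped one of them.

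The unmethylated windows rarely stood alone. Stretches were drawn by joining consecutive windows at 20% or less in the reads of all libraries together, with 20 or more such reads. The stretch around a window had a median length of 11 kb (quartiles 5 and 20.5 kb), the longest measured 152.5 kb, and only 43 windows (0.908%) were alone in theirs. Stretches of 10 kb or more held 2553 windows (53.9%), and 3211 windows (67.8%) shared their stretch with a CpG-dense unmethylated window. Around the CpG-dense unmethylated windows the median was 12 kb, and 57.5% lay in stretches of 10 kb or more. Levels were pooled over all libraries, so a stretch can hold a window that is methylated in the adult. The neighbour at 385001 to 385500 of Scaffold164, at 40.3% and 53.7% in adult tube feet, lay inside such a stretch. Stretches may also run on further, since 37.3% of the 7942 stretch ends were windows with too few reads. A further 38.2% were windows with no listed CpG or scaffold ends. Of the ends, 8.16% met a window at 50% or more and 16.4% a window between 20% and 50%. Without 24 hpf replicate 2 the median was 11.5 kb.

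**Figure D4:**
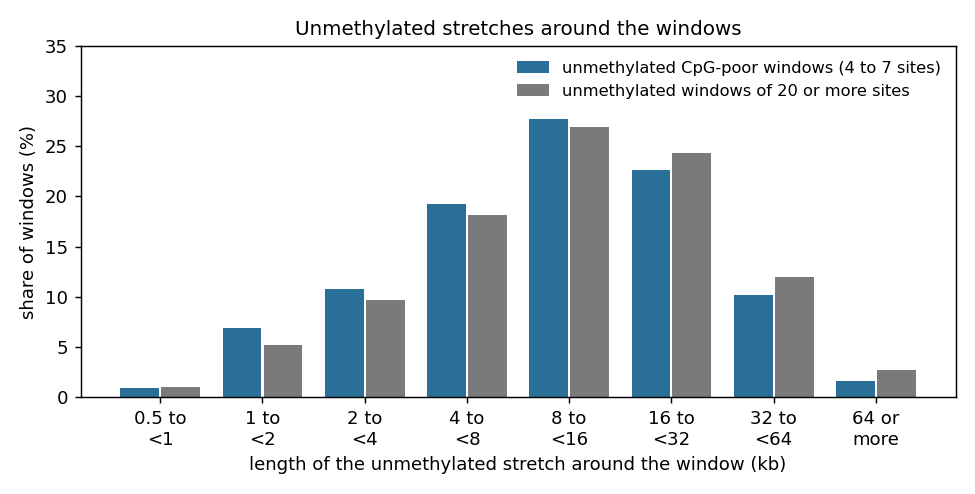
Length of the unmethylated stretch (kb, in classes that double) around the unmethylated CpG-poor windows (blue) and around unmethylated windows of 20 or more CpG sites (grey), in percent of windows of each set. Both sets have their highest bar at 8 to 16 kb, with 27.8% of the CpG-poor and 26.9% of the CpG-dense windows.

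The windows were spread over the assembly. They lay on 1815 of the 3415 scaffolds that had a window of 4 to 7 sites with enough reads, and 846 scaffolds had a single one. Scaffold34 held the most, 18 among its 65 windows of this kind with enough reads. Directly beside another unmethylated CpG-poor window lay 305 of them (6.44%), mostly in pairs. There were 9 runs of 3 windows, and the longest runs, 2 in number, had 4 windows each. One ran from 331001 to 333000 of Scaffold739, where the 4 windows had pooled levels of 0.655%, 0.388%, 0.876% and 0.280% and 24 hpf replicate 2 had 24, 39, 23 and 383 reads. The other ran from 111501 to 113500 of Scaffold1097, with pooled levels of 0.441%, 0.202%, 0.207% and 0.290%. In its last window 24 hpf replicate 2 had 1051 reads, against 95 to 205 in the 7 other libraries, so coverage was uneven between libraries within these runs.

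Levels were next read in libraries whose levels had no part in the choice, although 20 or more reads were still required in them. For each library, windows of 4 to 7 sites at 10% or less in the 7 other libraries were taken, and the share above 10% in the library left out was 0.253% and 1.86% (24 hpf), 0.211% and 0.441% (48 hpf), 0.274% and 0.253% (72 hpf) and 0.567% and 0.608% (adult tube feet), among 4747 to 4827 windows each. The adult shares averaged 0.588% ± 0.0295 (SD, n = 2) and the embryo shares 0.549% ± 0.649 (SD, n = 6), a difference of 0.0383 points (two-sided exact permutation test, p = 1). For each library left out, the other library of its group still took part in the choice. A change shared by both libraries of a group was thus mostly screened out, and this test cannot show it. Both adult libraries were above every embryo library except 24 hpf replicate 2, without which the embryos averaged 0.286% ± 0.0897 (SD, n = 5). With that library also left out of the choice, the difference was 0.233 points (exact permutation p = 0.143). Only 2 windows exceeded 50% in a library left out, both in 24 hpf replicate 2. Among windows chosen on the 7 others that had only 5 to 19 reads in that library, 386 of 11482 (3.36%) were above 10%. With under 10 reads, 1 methylated read is enough to exceed 10%, so this share cannot be compared with those at 20 or more reads.

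Leaving out a whole group gave larger shares. Of 4873 windows chosen on the 6 embryo libraries, 107 (2.20%) exceeded 10% in adult replicate 1 and 109 (2.24%) in adult replicate 2. In both adult libraries 80 did (1.64%, Wilson 95% interval 1.32% to 2.04%), and 7 exceeded 50% in both. When an embryonic stage was left out, the windows above 10% in both of its libraries were 14 of 4853 at 24 hpf, 2 of 4770 at 48 hpf and 6 of 4768 at 72 hpf. In windows of 20 or more sites, 708 of 59384 (1.19%) exceeded 10% in both adult libraries. The choice of a group rests on other libraries each time, so these shares are set side by side without a test.

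Choosing on the adult gave more exceptions. Of 6088 windows of 4 to 7 sites at 10% or less in both adult libraries, 882 (14.5%) exceeded 10% in all 6 embryo libraries and 521 (8.56%) exceeded 50% in all of them. In windows of 20 or more sites, 1372 of 64427 (2.13%) exceeded 10% in all embryo libraries and 192 (0.298%) exceeded 50%. Per embryo library, the share above 10% was 17.9% ± 0.958 in the CpG-poor windows and 5.03% ± 1.58 in the CpG-dense ones (SD, n = 6 each), a difference of 12.9 ± 0.649 points that was positive in 6 of 6 libraries (two-sided exact sign-flip permutation test, p = 0.0313, the smallest it can give). Leaving out 24 hpf replicate 2 gave 4.96 points (p = 0.0625 in the exact permutation test, its lower bound with 5 libraries), and 3.42% of 26822 CpG-poor windows exceeded 50% in all embryos. This comparison was chosen once the data were known and lies outside the 6 adjusted tests. All embryo libraries read the same windows, so the p-value covers the spread between libraries only.

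The number of windows that could contribute differed greatly between the classes. Above 50% in all embryo libraries stood 76.7% of the windows of 4 to 7 sites and 15.8% of those of 20 or more. Of these embryo-methylated windows, 1.97% of the CpG-poor and 1.36% of the CpG-dense ones were at 10% or less in both adult libraries, so the classes were much closer by this count. The test of the share above 10% in embryo libraries does not take this into account. With 1 pair of libraries choosing and 1 pair read, 549 of 6088 CpG-poor windows (9.02%, Wilson 95% interval 8.32% to 9.76%) chosen on the adult exceeded 50% in both 72 hpf libraries, and 10 of 5163 (0.194%, interval 0.105% to 0.356%) chosen at 72 hpf exceeded 50% in both adult libraries. Above the 10% limit itself in both libraries read were 970 of the 6088 (15.9%) and 134 of the 5163 (2.60%).

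**Figure D5:**
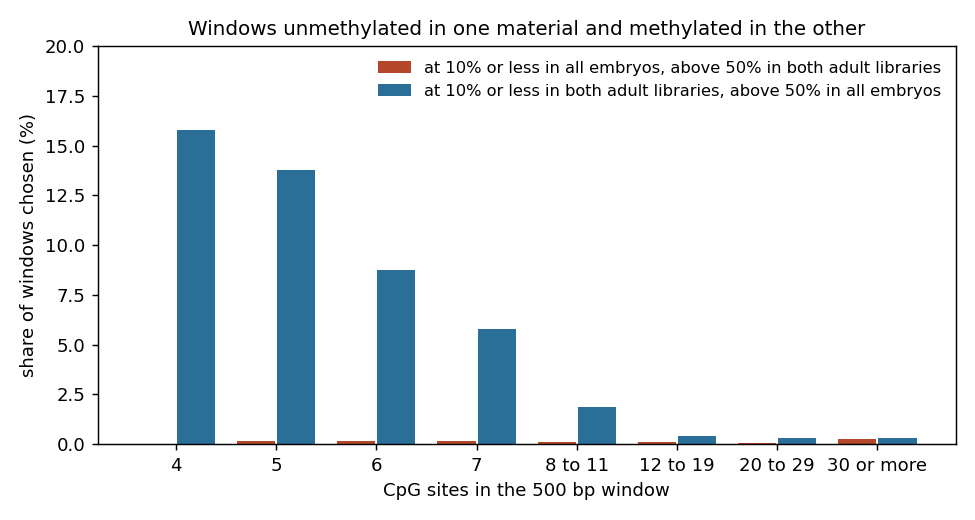
Share (percent) of windows at 10% or less in all 6 embryo libraries that exceeded 50% in both adult libraries (red), and of windows at 10% or less in both adult libraries that exceeded 50% in all 6 embryo libraries (blue), by number of CpG sites in the window. The blue bars decline from 15.8% at 4 sites to 0.292% at 20 to 29 sites, while the red bars stay at 0.279% or below in every class.

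Coverage was the last measure compared. Reads per CpG site in the unmethylated CpG-poor windows, divided by those in the methylated CpG-poor windows, gave 1.04 and 0.817 (24 hpf), 1.05 and 0.965 (48 hpf), 1.01 and 1.09 (72 hpf) and 1.03 and 1.09 (adult tube feet). The adult values lay among or close to those of the embryos, and no test is given because the rule used the reads. The lowest ratio was that of 24 hpf replicate 2, although its windows had passed the same minimum of 20 reads. In 2663 of the 4737 windows (56.2%) it was the shallowest library, with a median of 34 reads, against 57 to 85 in the 7 other libraries.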

How the data were processed

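Bisulfite sequencing (MethylC-seq) libraries of sea urchin embryos and adult tube feet were analysed from the deposited CpG calls, 1 file for each library. The authors called methylation, per the file headers, with MethylDackel on merged, sorted and deduplicated reads against linear scaffolds of build Spur3.1, with both strands of a CpG merged. Trimmomatic and Picard are also named, per the submitters' processing notes, while the sources used here do not give an aligner or tool versions. The deposited counts of methylated and unmethylated reads per CpG are not normalized and were used throughout. The percent column deposited by the authors equals the methylated share of these counts cut down to a whole number in every row and was used for that check only. Lambda phage rows were kept apart.

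Counts were summed in 500 bp windows, with coordinates given 1-based, using Python 3.11.15, NumPy 2.4.6, pandas 2.3.3 and SciPy 1.17.1. Medians of 34 to 85 reads per window and library limit the precision of single windows. Exact permutation tests compared values per library; the family of 6 for adjustment includes a coverage ratio, which is given as a description because the rule used the reads. With 28 splits the smallest p is 0.0357. Single windows were tested by quasi-binomial logistic regression over all 8 libraries, each group having its own mean, with dispersion moderated by limma 3.58.1 (R 4.3.3), a lower bound of 1, an F test and Benjamini-Hochberg adjustment. Windows with mean levels under 2.5% or over 97.5% could not be called. The test was checked on simulated data. The adjusted p in the text is from this test.

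Groups and replicate numbers came from the sample titles. The labels call the replicates biological but do not say whether same-numbered libraries share parents. The windows and comparisons were chosen with earlier results of these data known. Named windows are the 4 best covered, the 4 largest rises and 4 largest falls among called denser neighbours with 50 or more reads in each adult and 72 hpf library and no overlap between those groups, the longest runs, and those nearest the limit; 0 windows met a further rule for a single site at 80% or more. Alternatives changed the read minimum, level limit, grid, site count, weighting, test, replicate block and libraries. Genes and sequences were not analysed here.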

Additional observations from a re-analysis of the deposited data

Results flagged for a closer look

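Over the 6 embryo libraries, 7 measures of the unmethylated CpG-poor windows and of lambda were examined for a library far from the others by Dixon's criterion, and 2 had one; chance gives this with a probability of 0.05 per measure. In 24 hpf replicate 2, 1.86% of windows chosen on the 7 other libraries exceeded 10%, against 0.211% to 0.441% in the 5 other embryo libraries. The same library had the fewest reads per window, a median of 34, and its global level over all CpG sites was 42.2%, against 24.2% to 29.8% in the 5 other embryo libraries. The part of these values in the share was not tested. In 24 hpf replicate 1, 0.112% of lambda reads were called methylated, against 0.232% to 0.296% in the 5 other embryo libraries, and its pooled level in the CpG-poor windows, 0.569%, was the lowest of the embryo libraries.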

How the results depend on the processing

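The level of the denser neighbours, below that of the neighbours of other CpG-poor windows, and the adult minus embryo difference in neighbour level (-0.276 to -0.0520 points with each library left out) kept their direction and their side of the threshold under every alternative run. A minimum of 10 reads gave 14146 unmethylated CpG-poor windows (18.0% of those tested), with 31 denser neighbours called higher and 38 lower in the adult. A minimum of 40 reads gave 1047 windows (10.5%), 2 neighbours higher and 0 lower by the quasi-binomial test. The share of windows was 12.5% at a limit of 5%, 15.1% at a limit of 20% and 16.4% with sites listed in at least 4 files. At 20%, 13 neighbours were called higher and 23 lower, and the difference from neighbours of CpG-dense windows turned to 0.156 points. On the shifted grid 2 neighbours were called higher. The adult minus embryo share above the limit in libraries left out turned to -0.0738 points with 40 reads, -0.0560 at 20% and -0.0812 on the shifted grid. The share above the limit in the adult of windows chosen on embryos was 2.15% (10 reads), 2.5% (40 reads), 2.73% (limit 5%), 1.89% (limit 20%), 2.36% (shifted grid) and 2.19% (4 files). Leaving out each library in turn gave 4757 to 23405 windows, a share of 13.8% to 25.3%, 4 to 70 neighbours higher and 2 to 70 lower, -0.117 to 1.62 points for libraries left out, and 2.21% to 2.38% for the adult after choice on embryos. It put the highest of the 4 group means 0.275 to 0.728 points above the lowest, with an exact permutation p of 0.0286 without 24 hpf replicate 1 alone, and 4.96 to 15.8 points for windows chosen on the adult, where leaving out any embryo library put the exact permutation p at 0.0625. For libraries left out, the adult minus embryo share was 1.62 points without adult replicate 1 and 1.61 points without adult replicate 2. No second adult library took part in the choice then. Without each embryo library in turn it was -0.117 to 0.233 points. The cause of these changes was not tested. With a replicate block, 6 neighbours were called higher and 6 lower, and the exact permutation p was 0.375 for the neighbours' adult minus embryo level; the labels do not say what same-numbered libraries share, and their deviations correlated at -0.00360 to 0.258. Depth limits single windows: with 20 reads a level moves by 5 points per read.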
